A study of Ovis aries with 10 samples.

Results

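The miR-26 family is represented on the ovine array by 2 probes, miR-26a (oar-miR-26a) and miR-26b (oar-miR-26b), which were chosen by name out of 152 ovine miRNA probes. A further 55 probes on the array were controls. Both members were read on all 10 arrays, and each is described here by its level, its rank among the miRNA probes, its change in fibrotic lung and the ratio of miR-26a to miR-26b. The samples were caudal lung segments of 5 female sheep, aged 9 months by the labels, numbered 2, 3, 6, 7 and 10, which were euthanised at week 4. The methods give an age range that starts at 9 months. From each animal 1 segment is labelled Fibrosis and the other Normal, so every comparison was made within a sheep. According to the methods, bleomycin, a drug that injures the lung and leaves fibrosis, was infused into 1 segment and saline into the other, and the 5 sheep were selected from a larger group for the severity of their fibrosis. If the labels follow the infusion, the normal segment is a saline-infused segment of an animal that also received bleomycin. The labels and the methods differ on the side for some of the sheep, as given below. No untreated sheep was included.

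MiRNAs are short RNAs that bind to mRNAs through a few bases near their start, the seed, and lower the output of those mRNAs. The miR-26 miRNAs share a seed and are abundant in many differentiated tissues. Known targets include EZH2, a histone methyltransferase, CTGF, a matrix-associated growth factor, and HMGA2, a chromatin protein. In lung, miR-26a has been linked to restraint of transforming growth factor β (TGF-β) signalling and of the conversion of fibroblasts into myofibroblasts. In the RefSeq gene table of the sheep assembly ARS-UI_Ramb_v3.0, the MIR26A gene lies within the span of CTDSP2 and MIR26B within that of CTDSP1. The CTDSP genes encode small phosphatases that act on RNA polymerase II. The table holds no other miR-26 gene by name.

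The deposited value of each probe is a background-corrected intensity on a linear scale, which was set to at least 1 and log2 transformed for tests. Summed over the miRNA probes, intensity per array lay between 138979 and 146225, whereas the summed control probe intensity differed 12.0-fold between arrays, from 78151 to 936426. The 4 arrays of sheep 6 and 10 were the highest for the control probes, at 275300 or above, against at most 205564 on the 6 arrays of sheep 2, 3 and 7. The labels and the methods differ on the side of the fibrotic segment. The methods give the left segment as the bleomycin-infused one in every sheep, while the labels give the left one in sheep 2 and 3 and the right one in sheep 6, 7 and 10. The labels were followed, and values with the left segment taken as fibrotic are given beside the results. In whole tissue, fewer cells of a type and less RNA per cell cannot be told apart.

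MiR-26a was the brightest miRNA probe on 7 of the 10 arrays and miR-21 on the other 3. Its intensity in the normal segments was 17009, 15359, 19514, 17096 and 19612 for sheep 2, 3, 6, 7 and 10 in that order. In the fibrotic segments the corresponding values were 16470, 13287, 16181, 14805 and 15028. The fibrotic segment was the lower one in every sheep, yet the groups overlapped, since the fibrotic segments of sheep 2 and 6 were above the normal segment of sheep 3. The probe ranked 1 of 152 on all 5 normal arrays and on the fibrotic arrays of sheep 3 and 7, and 2 on the other 3 fibrotic arrays. It accounted for 9.36% to 13.6% of the summed miRNA intensity of an array, with a share of 12.4% ± 1.11 (SD, n = 5) for normal segments against 10.7% ± 0.862 (SD, n = 5) for fibrotic ones.

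**Figure D1:**
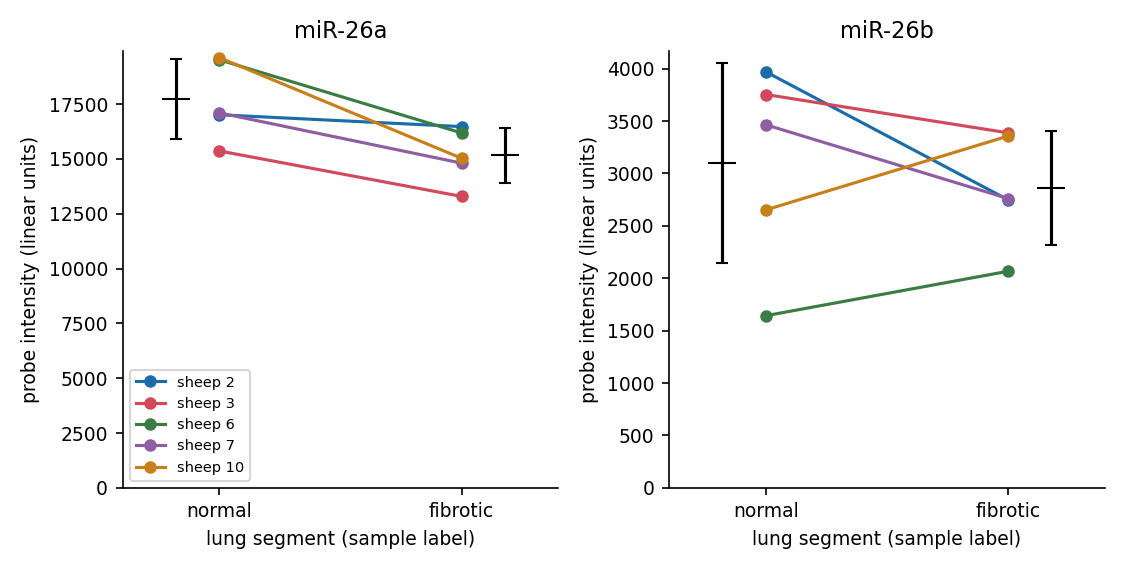
Probe intensity (linear units, y axis from 0) of miR-26a on the left and miR-26b on the right in the normal and fibrotic segment of each sheep. Lines join the segments of 1 sheep, and black bars give the mean and SD of 5 sheep. The miR-26a lines all slope downwards, while those of miR-26b slope downwards for sheep 2, 3 and 7 and upwards for sheep 6 and 10.

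MiR-26b, which differs from miR-26a outside the seed, was dimmer and far more variable. Its intensity in the normal segments was 3970, 3753, 1643, 3465 and 2652 for sheep 2, 3, 6, 7 and 10. Their fibrotic segments had 2749, 3388, 2066, 2761 and 3357. Sheep 6 had the lowest value in both groups, and the whole fibrotic range lay within the normal range. MiR-26b ranked between 14 and 26 among the miRNA probes, with a median rank of 18 in normal and 17 in fibrotic segments. It held 1.12% to 2.85% of the summed miRNA intensity, and both members together held 11.7% to 15.5%.

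The order of probe signals is not an order of amounts, because probes can bind their targets unequally. By mean log2 signal over the 10 arrays, miR-26a stood first with 14.00 ± 0.17 (SD, n = 10). Next came miR-21, a miRNA known to promote fibrosis, with 13.31 ± 0.73 (SD, n = 10). MiR-26a was above miR-21 on 5 of 5 normal arrays and on 2 of 5 fibrotic arrays, so the mean difference of 0.68 was smaller than its SD over arrays of 0.71 and the order of this pair was not settled. MiR-143, a miRNA enriched in smooth muscle, came after miR-21. It was below miR-26a on all 10 arrays, by 0.77 ± 0.50 (SD, n = 10) on the log2 scale. MiR-26b stood 19th, at a log2 signal of 11.50 ± 0.40 (SD, n = 10). Its neighbours were miR-125b and let-7g above and miR-30c and miR-29b below, and each of these differed from it by less than the SD of the difference over arrays.

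**Figure D2:**
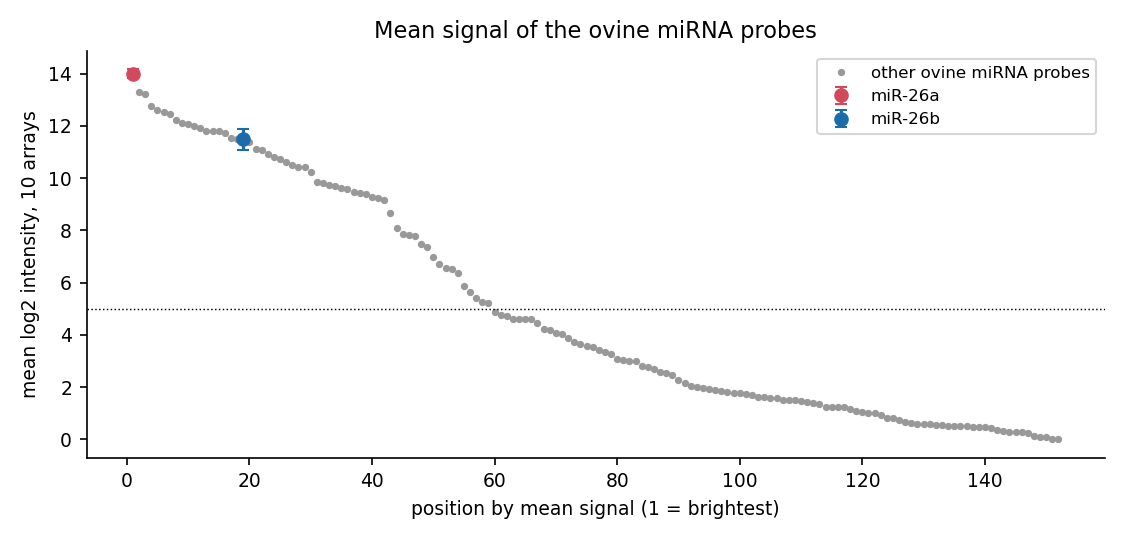
Mean log2 intensity over 10 arrays (y axis) of the 152 ovine miRNA probes in order of signal (x axis, 1 is the brightest). Error bars of the members are the SD over arrays, the dotted line marks a mean log2 signal of 5, and miR-26a is in first and miR-26b in 19th place.

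The members also differed in spread. Among the 59 miRNAs whose mean log2 signal reached 5, miR-26a had the 7th smallest SD over the 10 arrays, and its within-sheep change had the 3rd smallest SD between sheep, 0.12 against a median of 0.34. MiR-26b was in the middle of these miRNAs, with the 29th smallest SD over arrays and an SD of its within-sheep change of 0.39. Its highest intensity was 2.42-fold its lowest over the 10 arrays, against 1.48-fold for miR-26a.

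The comparison of fibrotic with normal segments asked whether miR-26 is lower in fibrotic lung. The within-sheep difference of miR-26a intensity ran from -3.17% in sheep 2 to -23.4% in sheep 10. The mean log2 fold change was -0.22, with a standard error of 0.11 and a 95% interval of -0.51 to 0.06, which is 0.856-fold with an interval of 0.703 to 1.04. The limma fit with the sheep as a block gave an unadjusted p of 0.101 and a Benjamini-Hochberg adjusted p of 0.498 over the 152 miRNAs. This standard error draws on the spread of all miRNAs, of which 93 had a mean log2 signal under 5. Taken from the 5 within-sheep changes of miR-26a alone, the standard error was 0.05 and the 95% interval -0.38 to -0.07, which does not include 0. The methods' test paired by sheep, made on the same changes, gave miR-26a an unadjusted p of 0.0150 and a Benjamini-Hochberg adjusted p of 0.528. Flipping the signs of the 5 within-sheep changes in all ways (exact permutation, two-sided) gave p = 0.0625, below which a design of this size cannot go. Of the 152 miRNAs, 5.26% were lower in the fibrotic segment of every sheep, that is 8 miRNAs including miR-26a, as were 5.08% or 3 of the 59 brighter miRNAs, those with a mean log2 signal of 5 or more. Groups without overlap and lower in fibrosis were seen for 0% of the 152 miRNAs. The difference did not pass the adjusted threshold of 0.05.

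MiR-26b had log2 changes of -0.53, -0.15 and -0.33 for sheep 2, 3 and 7, but of 0.33 and 0.34 for sheep 6 and 10. The mean log2 fold change was -0.07, with a standard error of 0.18 and a 95% interval of -0.52 to 0.39, and the adjusted p was 0.840 in limma. The sign-flip test gave an exact two-sided p of 0.75. The change was lower in 3 sheep and higher in 2, and the interval is too wide to tell a decrease from an increase. Of the 152 miRNAs, limma called 0% at an adjusted p under 0.05, and 8 lower and 10 higher at an unadjusted p under 0.05 (5.26% and 6.58%), without either member of the family. By size of decrease, miR-26a was 13th and miR-26b 29th of the 59 brighter miRNAs, whose median log2 fold change was -0.07.

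**Figure D3:**
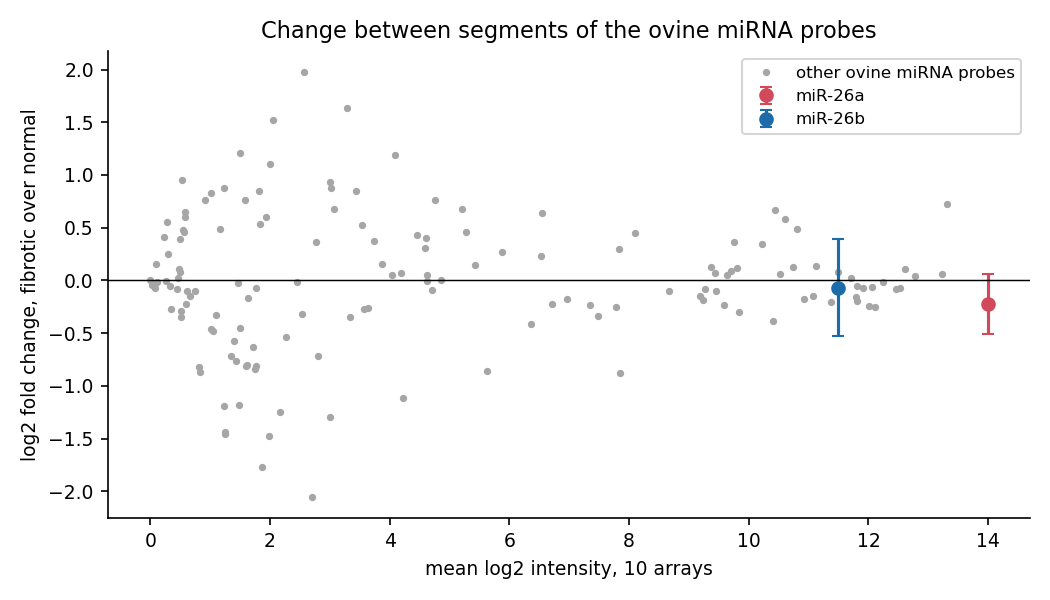
Log2 fold change of fibrotic over normal segments (y axis) against mean log2 intensity (x axis) for the 152 ovine miRNA probes. Bars of the members are 95% intervals of limma, and both intervals include 0.

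The direction of the miR-26a change depends on which segment is taken as fibrotic. With the left segment taken as fibrotic in every sheep, as the methods state, miR-26a had a log2 fold change of 0.12 (limma adjusted p = 0.931) and that of miR-26b was -0.20 (limma adjusted p = 0.908). At an unadjusted p under 0.05, limma then had 3 miRNAs lower and 0 higher, against 8 and 10 with the labels. With the labels, the change of miR-21 was above 0 in 5 of 5 sheep, with a mean of 0.73 on the log2 scale. By the same labels, 13 of the 152 miRNAs, miR-21 among them, went up in each animal. Taking the left segment as fibrotic reverses the sign of the miR-21 change in sheep 6, 7 and 10. It is then above 0 only in sheep 2 and 3. Which coding is right was not tested. By side alone, miR-26a was higher in the right segment of sheep 2 and 3 and in the left segment of sheep 6, 7 and 10. MiR-26b was lower in the left segment in 4 of 5 sheep, all but sheep 7. Sheep are the replicates, and their number, 5, limits how precise any of these values can be.

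Relative to miR-103, the reference miRNA of the study's qPCR, miR-26a had a log2 fold change of -0.31 with a standard error of 0.15, and miR-26b by -0.16 with a standard error of 0.24. MiR-103 itself ranged from 688 to 920 in intensity and was higher in the fibrotic segment of 4 of 5 sheep. With each array centred on the median of all its control probes, a scaling added after the data were seen, the median change of all miRNAs moved from -0.02 to 0.39. The log2 fold changes were then 0.19 for miR-26a and 0.34 for miR-26b. Such a scaling adds the same amount to the mean change of every miRNA, and relative to the median of all miRNAs miR-26a was at -0.20 and miR-26b at -0.05.

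The ratio of miR-26a to miR-26b varied more between sheep than between segments. It is a ratio of probe signals and not of molecules, but a scaling of a whole array cancels in it. In the normal segments the ratio was 4.28, 4.09, 11.9, 4.93 and 7.39 for sheep 2, 3, 6, 7 and 10, and their fibrotic segments had ratios of 5.99, 3.92, 7.83, 5.36 and 4.48. Sheep 6 was highest in either segment. On the log2 scale the ratio had changes of -0.60 and -0.72 for sheep 6 and 10, while the other 3 sheep had changes of 0.48 (sheep 2), -0.06 (sheep 3) and 0.12 (sheep 7). The mean change was -0.16, with a standard error of 0.23 and a 95% interval of -0.78 to 0.47 over the 5 sheep (sign flips, exact permutation, two-sided p = 0.5). A different change of both members was thus not detectable with 5 sheep. With only sheep 2, 3 and 7, taken after the data were seen for their dimmer control probes, the mean change of the ratio was 0.18. These are also the 3 sheep in which miR-26b was lower in the fibrotic segment, so that this value is no separate evidence. With the left segment taken as fibrotic the change of the ratio was 0.33.

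**Figure D4:**
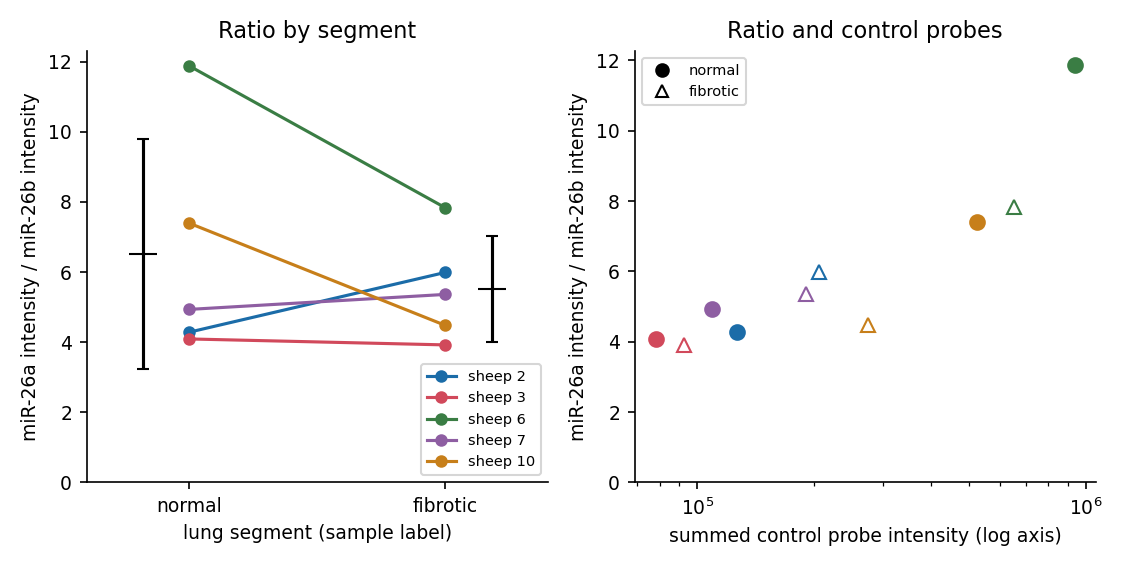
Left, ratio of miR-26a to miR-26b intensity (y axis from 0) in the normal and fibrotic segment of each sheep, with black bars for the mean and SD of 5 sheep. Right, the same ratio on 10 arrays against the summed control probe intensity (log axis), coloured by sheep as on the left. The ratio is highest, at 11.9, on the array with the brightest control probes.

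MiR-26b moved against the control probes and the ratio with them. By name, the control probes include probes for 5S ribosomal RNA. The summed control probe intensity was higher in the fibrotic than in the normal segment of sheep 2, 3 and 7 and lower in sheep 6 and 10. MiR-26b went the opposite way in each of the 5 sheep. Over the 10 arrays, which share 5 animals, the log2 signal of miR-26b had a Pearson correlation of -0.892 with the log2 of the summed control probe intensity, and of -0.799 over the 6 arrays of sheep 2, 3 and 7. For miR-26a the correlation was 0.625 over the 10 arrays but 0.259 over the 6 arrays of sheep 2, 3 and 7. MiR-26a changed in the direction of the control probes in 2 of 5 sheep. For the log2 ratio the correlation was 0.915 over the 10 arrays and 0.890 over those 6. The ratio changed in the direction of the control probes in 4 of 5 sheep. For the 59 brighter miRNAs the correlation over 10 arrays ranged from -0.969 to 0.972 with a median of 0.110, and miR-26b was the 6th lowest. The part of the control probe signal in these results was not tested.

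The miRNAs most like each member over the arrays were not the same. MiR-26a followed miR-29a, which represses collagens and other matrix genes, with a Pearson correlation of the log2 signal of 0.771 over 10 arrays, and then miR-30a-5p (0.701) and miR-106a (0.624). MiR-29a and miR-30a-5p were, with miR-26a, the 3 brighter miRNAs that were lower in the fibrotic segment of all 5 sheep. MiR-29a had a log2 fold change of -0.19 and miR-30a-5p one of -0.25, with limma adjusted p values of 0.530 and 0.516.

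MiR-26b followed miR-30c, another member of the miR-30 family, with a correlation of 0.937, and then miR-374a (0.914) and miR-374b (0.904), which are related to each other. The change of miR-30c had the sign of that of miR-26b in all 5 sheep, from -0.55 in sheep 2 to 0.22 in sheep 10. Without sheep 6, where miR-26b was lowest, the correlation over 8 arrays was 0.855 for miR-30c, 0.774 for miR-374a and 0.776 for miR-374b. With each other, miR-26a and miR-26b had a correlation of -0.493 over 10 arrays, and -0.261 without sheep 6. MiR-26b stood 44th of 58 miRNAs by likeness to miR-26a. These correlations are descriptions, since segments of 1 sheep are not independent and the miRNA signals of an array summed to nearly the same total.

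**Figure D5:**
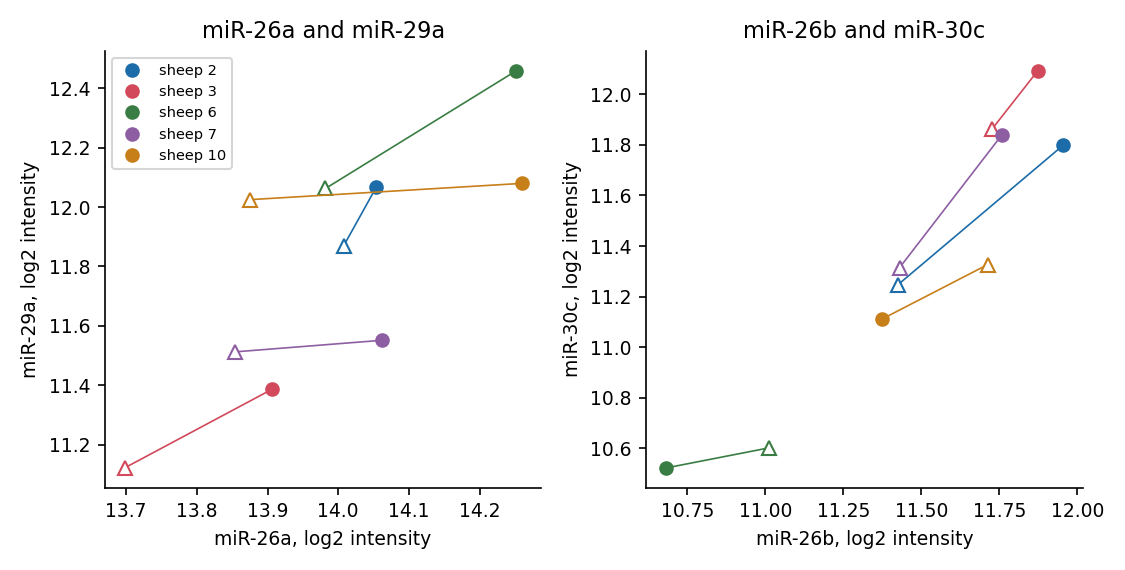
Log2 intensity of miR-29a against miR-26a on the left and of miR-30c against miR-26b on the right, for the normal (filled circles) and fibrotic (open triangles) segment of each sheep, joined by a line. Pearson correlations over the 10 arrays are 0.771 and 0.937.

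The other families that have been tied to lung fibrosis beside miR-26 gave a background for its change. The list held 18 probes of the let-7, miR-17, miR-19, miR-21, miR-29, miR-30 and miR-199 families, partly chosen by the study on these samples. Their median log2 fold change was -0.07, against -0.02 for all 152 miRNAs and -0.07 for the 59 brighter ones, to which all 18 belong. At an adjusted p under 0.05 in limma, 0 of 18 passed, and 0% of the 152. At an unadjusted p under 0.05, 5.26% of the 152 miRNAs were lower and 6.58% higher, and the list had 1 lower and 2 higher. These were miR-30a-3p with a log2 fold change of -0.88, miR-21 with 0.73 and miR-199a-3p with 0.49. MiR-26a had a smaller change than these 3 and also a smaller standard error, 0.11 against 0.32 for miR-30a-3p, 0.25 for miR-21 and 0.17 for miR-199a-3p.

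Markers of cell types were followed beside the family. The summed intensity of miR-200a, miR-200b and miR-200c, miRNAs of epithelium, was 2400 to 4319 in normal and 3496 to 6712 in fibrotic segments. All 3 had a log2 fold change above 0, and miR-200b was higher in all 5 sheep, by 0.58 (limma unadjusted p = 0.0152, adjusted p = 0.411). Of all 152 miRNAs, 70 had a log2 fold change above 0 and 13 were higher in all 5 sheep. The summed intensity of miR-143, miR-199a-3p and miR-21, linked to smooth muscle and fibroblasts, was 10047 to 35901 in normal and 15704 to 32962 in fibrotic segments. All 3 of these also had a log2 fold change above 0. MiR-199a-3p (0.49) and miR-21 (0.73) were higher in all 5 sheep (limma adjusted p = 0.411 for each). MiR-143 (0.06) was higher in 3 of 5 sheep (limma adjusted p = 0.888). The lymphocyte miRNA miR-150 lay between 445 and 2107 in normal and between 309 and 1985 in fibrotic segments, with a log2 fold change of -0.30 and a lower value in 4 of 5 sheep (limma adjusted p = 0.540). MiR-133 of striated muscle lay between 35.2 and 162 in normal and between 23.5 and 49.3 in fibrotic segments, with a log2 fold change of -0.86 and a lower value in 3 of 5 sheep (limma adjusted p = 0.498). No marker was at 0 on any array, and the part of cell composition in the miR-26 values was not tested.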

How the data were processed

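Small RNA from the normal and fibrotic caudal segment of 5 sheep was labelled with 1 dye (Cy3) and read on a custom ovine array, 1 array per segment. The intensity values that the authors deposited are, by their methods, corrected for background and are means of 21 spots of a probe. They ran from 0.000974 to 200194 and are therefore linear, although log2 data are described. The scaling between arrays and the array build are not given in the sources used here, so no coordinates are printed. Of the miRNA values, 14.8% were below 1. Values were set to at least 1, log2 transformed and fitted for all 152 miRNAs by lmFit and eBayes of limma 3.58.1 (R 4.3.3) with the sheep as block and Benjamini-Hochberg adjustment. The fit was first checked on simulated arrays. The changes planted there were larger than those of both members, so the check cannot tell whether changes of their size would be found. The ratio was tested by exact sign-flip permutation, 1 of 3 such tests on the members. Single spots were not analysed here.

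Groups came from the sample labels, and both segments of an animal form a pair. Deviations of both segments of a sheep correlated at 0.34, 0.90, 0.40, -0.67 and 0.56 in sheep 2, 3, 6, 7 and 10. The members and lists were chosen with earlier results of these data known. Named miRNAs are the members, the 2 next in signal on each side, the 3 most correlated with each member among the brighter miRNAs (mean log2 signal 5 or more), miR-103, and list members with an unadjusted p under 0.05 or 1 direction in 5 sheep. Alternatives were other scalings, a floor of 32, a filter on dim miRNAs, no block and leaving out each sheep. Others were the left segment as fibrotic, side as a covariate, an intensity trend and a t-test of the within-sheep changes. No group value stood apart by Dixon's test.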

Additional observations from a re-analysis of the deposited data

How the results depend on the processing

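MiR-26a was below 0 in 18 of 20 alternatives and miR-26b in 17 of 20. The floor, filter, trend, t-test and no block cannot move these means. Nor can leaving out 1 sheep turn miR-26a, lower in all 5. No adjusted p was under 0.363 for miR-26a or 0.407 for miR-26b. The log2 fold change of miR-26a turned to 0.12 with the left segment taken as fibrotic and to 0.19 with arrays centred on all control probes. That of miR-26b turned to 0.34 with the latter, to 0.046 after quantile normalization and to 0.049 without sheep 2. The change of the ratio turned to 0.33 with the left segment taken as fibrotic and to 0.18 with sheep 2, 3 and 7 alone. Centring on all control probes and using sheep 2, 3 and 7 were chosen after seeing the data. The former adds the same amount to every miRNA's mean change (median then 0.39), so its turns follow from its construction. The cause of the other turns was not tested. Leaving out 1 sheep gave -0.27 to -0.18 for miR-26a, -0.17 to 0.049 for miR-26b and -0.32 to -0.01 for the ratio. The limma unadjusted p of miR-26a was 0.0142 with a floor of 32, 0.0307 with an intensity trend and 0.0423 after centring each array on its median miRNA, which moved the median of all miRNAs to -0.18. Without the block the adjusted p was 0.716 for miR-26a and 0.935 for miR-26b.

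The count of miRNAs lower at an unadjusted p under 0.05, 8 in the report, was 5 with quantile normalized arrays and 13 with each array centred on its median miRNA, 4 on the 75th percentile, 3 on the control probes above the floor and 2 on all control probes. It was 3 with a floor of 32, 2 of the 59 brighter miRNAs, 3 with no replicate block and 3 with the left segment as fibrotic. With side as a covariate it was 3, with sheep 2, 3 and 7 alone 14, and by the t-test of the within-sheep changes 5. The count of those higher, 10 in the report, was 2 with each array centred on its median miRNA, 5 relative to miR-103 and 4 with a floor of 32. It was 5 with no replicate block, 0 with the left segment as fibrotic and 4 by the t-test of the within-sheep changes. But it was 15 with arrays centred on the 75th percentile and 13 on all control probes. Both with equal summed miRNA intensity and with sheep 2, 3 and 7 alone it was 12. Leaving out 1 sheep gave 1 to 15 lower, with the extremes without sheep 2 and sheep 6, and 4 to 11 higher. Neither member is among the counted miRNAs of the report. Scalings of a whole array and the filter leave the ratio as it is, and a trend could not be fitted to it.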

Other observations

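Among the 59 brighter miRNAs, those least like miR-26b over the 10 arrays were miR-127, an imprinted miRNA, miR-106b of the miR-17 family and miR-432, with Pearson correlations of the log2 signal of -0.933, -0.885 and -0.879. They were chosen after their values were seen. MiR-127 had a log2 signal of 7.88 in normal and 8.33 in fibrotic segments and was higher in the fibrotic segment of 4 of 5 sheep (log2 fold change 0.45, standard error 0.26, limma adjusted p = 0.518). The miRNAs least like miR-26a were let-7c (-0.666), miR-376c-3p (-0.639) and let-7b (-0.633).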
